A study of Mus musculus with 14 samples.

Results

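Gm4956, Treml2, Igfbp4, Gpr83 and Gfer were followed through regulatory T cells (Tregs) of lymphoid tissue and of tumors. They are 5 of the 22255 genes in the deposited expression table and were found in it by symbol. They were chosen by the measured values of these same libraries, for standing far lower in wild-type tumor Tregs than in lymph node Tregs, so that difference is a description here and carries no test. The 14 RNA libraries were made from Foxp3-YFP-positive Tregs of 8-week-old mice, the YFP marking cells that express Foxp3. The groups were spleen (replicates 1 to 4) and lymph node (LN, replicates 1 to 4) of strain FoxP3-YFPCre+/+, Yumm1.7 melanoma of that strain (WT tumor, replicates 2 to 4) and Yumm1.7 melanoma of strain CD36floxed FoxP3-YFPCre+/- (KO tumor, replicates 1 to 3). All groups carry the Foxp3-driven Cre, and in the KO strain it acts on floxed Cd36, the gene of a fatty acid receptor. Replicates were not said to be separate animals, and the spread behind every error and p-value here may be technical.

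Tregs are the Foxp3-expressing CD4 T cells that restrain immune responses. In spleen and lymph node many of them are resting cells that recirculate, while those in tumors are mostly activated. The 5 genes belong to no single pathway. Gpr83 encodes a G protein-coupled receptor known as part of the Treg expression signature. Treml2 encodes a cell surface receptor of the TREM family, described on B cells, T cells and myeloid cells. Igfbp4 encodes a secreted protein that binds insulin-like growth factors and is known from naive T cells. Gfer encodes a sulfhydryl oxidase that works in the mitochondrial intermembrane space, where it reoxidizes the import receptor encoded by Chchd4. Gm4956 is annotated as a transcribed pseudogene, with no established function.

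Levels are FPKM, fragments scaled for transcript length and library size. The depth, estimated from the step that 1 read makes in low values, was 10.7 to 21.4 M (mega) reads per library, and 7469 to 8307 genes per library reached 1 FPKM. T cell and Treg markers were present in every library, with a summed level of Ptprc, Cd3e, Cd3d, Cd4, Foxp3, Il2ra and Ctla4 of 1078 to 1626 FPKM. Most of this sum was the T cell gene Cd3d, at 606 to 1184 FPKM, so it says little about the Treg markers. Ctla4 ran from 2.59 FPKM in spleen 1 to 166 FPKM in KO tumor 3. Foxp3 itself was lowest in WT tumor, the group that picked the genes, at 11.96, 3.54 and 11.97 FPKM, against 8.67 to 27.8 in spleen, 15.4 to 32.3 in LN and 25.7 to 42.4 in KO tumor. All WT tumor libraries lay below all LN and KO tumor libraries and overlapped spleen (limma adjusted p = 0.167 against LN and 0.153 for KO against WT tumor). The part of this in the results was not tested. Cd36 was listed at 0 in every LN and WT tumor library and at 0, 1.06 and 0 FPKM in KO tumor 1 to 3, so its deletion could not be read from these values. Markers of other cells differed between libraries. The summed macrophage markers ran from 140.4 to 495 FPKM in spleen, 0.615 to 36.0 in LN, 0.686 to 100.4 in WT tumor and 188 to 237 in KO tumor. The summed B cell markers ran from 76.3 to 329, 50.1 to 73.9, 7.46 to 100.4 and 19.4 to 60.6 FPKM in the same order. Erythroid transcripts split the tumor libraries, with 57.8, 7695 and 6251 FPKM in WT tumor 2 to 4 and 6929, 12106 and 35.6 FPKM in KO tumor 1 to 3. In bulk libraries such as these, fewer cells that express a gene and less RNA per cell cannot be told apart.

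Every one of the 5 genes reached 1 FPKM in all 8 lymphoid libraries. Of their 30 values in the 6 tumor libraries, 13 reached 1 FPKM. A label such as "lost in tumor" would thus be too strong for these values: the genes stood far lower in most tumor libraries, but no gene was at 0 in any of them, and which gene kept a clear signal differed from library to library.

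**Figure D1:**
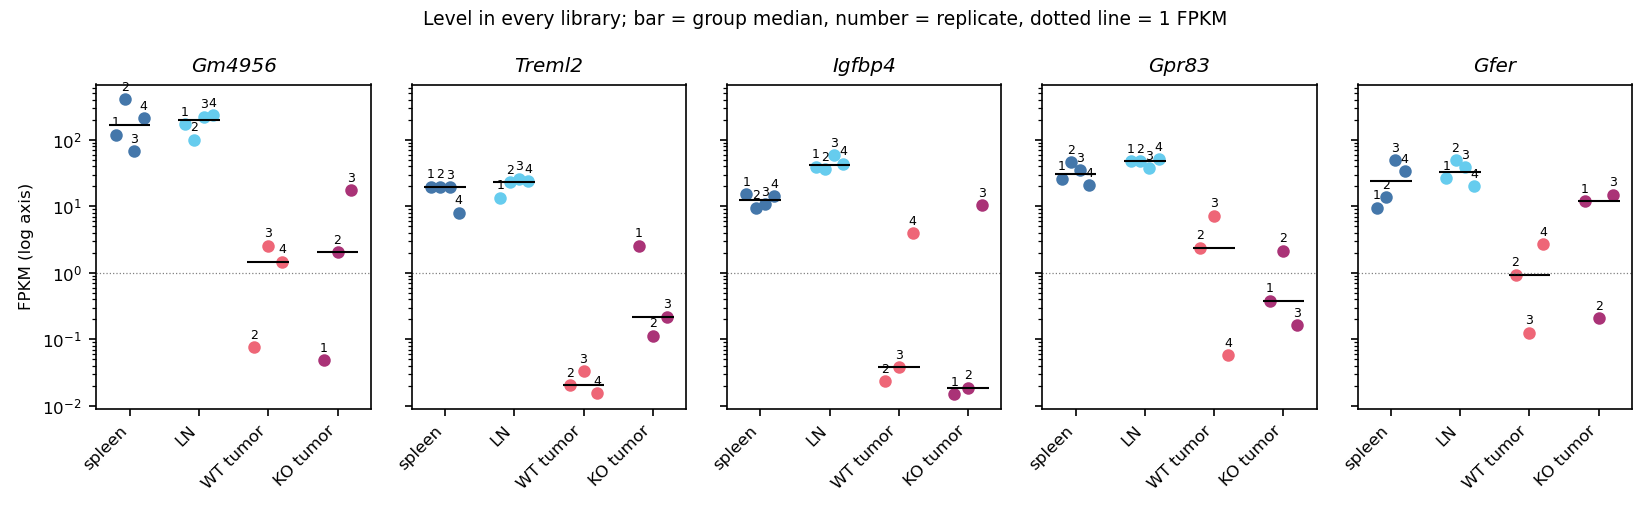
Level of each gene in every library, in FPKM on a log axis, by group, with the group median as a bar and the replicate number beside each point. The lymphoid libraries all lie above 1 FPKM, while the tumor libraries of each gene spread over 1 or more powers of 10.

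Gm4956 (chromosome 1, 21285246 to 21298312, minus strand, GRCm38) was the most abundant of the 5 in lymphoid Tregs. It stood at 119, 408, 67.8 and 211 FPKM in spleen 1 to 4 and at 172, 101, 222 and 237 FPKM in LN 1 to 4. WT tumor 2 to 4 had 0.0764, 2.56 and 1.48 FPKM, and KO tumor 1 to 3 had 0.0489, 2.06 and 17.5 FPKM. The lowest lymphoid library, spleen 3, lay above the highest tumor library, KO tumor 3. Means were 202 ± 150 FPKM in spleen (SD, n = 4), 183 ± 61.5 in LN (n = 4), 6.55 ± 9.57 in KO tumor (n = 3) and 1.37 ± 1.25 in WT tumor (n = 3). Spleen and LN overlapped, and so did the 2 tumor groups. The nearest gene of the table, the glutathione transferase gene Gsta3, was listed at 0 in all libraries but spleen 2, where it had 0.157 FPKM.

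Treml2 (chromosome 17, 48299498 to 48312533, plus strand) was the gene with the lowest WT tumor values. Its levels were 19.7, 19.7, 19.6 and 8.07 FPKM in spleen 1 to 4 and 13.6, 23.0, 26.0 and 23.8 FPKM in LN 1 to 4. WT tumor 2 to 4 had 0.0207, 0.0330 and 0.0154 FPKM, and KO tumor 1 to 3 had 2.56, 0.114 and 0.220 FPKM. All KO tumor values lay above all WT tumor values and below all lymphoid values, and KO tumor 1 held most of the KO tumor signal. Group means were 21.6 ± 5.49 FPKM in LN, 16.8 ± 5.80 in spleen, 0.966 ± 1.38 in KO tumor and 0.0230 ± 0.00904 in WT tumor, with LN and spleen overlapping. Treml2 lies in a cluster of TREM genes. Its neighbours Trem3 and Treml1 were listed at 0 throughout, Trem2 and Treml4 stayed below 0.5 FPKM, and the gene B430306N03Rik at 3607 bp did not exceed 3.25 FPKM. Treml2 is also known from B cells, whose summed markers were 50.1 to 73.9 FPKM in the LN libraries and 76.3 to 329 FPKM in spleen, and their part in its levels was not tested.

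Igfbp4 (chromosome 11, 99041244 to 99054392, plus strand) was the only one of the 5 whose spleen and LN values were apart. It stood at 15.3, 9.59, 10.9 and 14.2 FPKM in spleen 1 to 4 and at 39.3, 36.3, 58.9 and 44.0 FPKM in LN 1 to 4. It was near 0 in 4 of the 6 tumor libraries: WT tumor 2 and 3 had 0.0237 and 0.0379 FPKM, and KO tumor 1 and 2 had 0.0152 and 0.0188 FPKM. WT tumor 4 and KO tumor 3 were unlike the others, at 3.98 and 10.5 FPKM, and KO tumor 3 lay within the range of spleen. Means were 44.6 ± 10.02 FPKM in LN, 12.5 ± 2.70 in spleen, 3.52 ± 6.07 in KO tumor and 1.35 ± 2.28 in WT tumor. KO tumor 3 was also the tumor library with the lowest erythroid sum, at 35.6 FPKM, and its B cell sum of 60.6 FPKM was the highest of the KO tumor group. WT tumor 2, with the next lowest erythroid sum of 57.8 FPKM, had 0.0237 FPKM of Igfbp4. WT tumor 3 and 4, with higher B cell sums of 100.4 and 77.0 FPKM, had 0.0379 and 3.98 FPKM of Igfbp4. The part of erythroid and B cells in the Igfbp4 values was not tested.

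Gpr83 (chromosome 9, 14860210 to 14870789, plus strand) showed the reverse order of the tumor groups. Its levels were 26.2, 46.5, 35.4 and 20.7 FPKM in spleen 1 to 4 and 47.4, 47.4, 37.3 and 51.6 FPKM in LN 1 to 4. They were 2.39, 7.24 and 0.0580 FPKM in WT tumor 2 to 4 and 0.382, 2.16 and 0.162 FPKM in KO tumor 1 to 3. The highest tumor library, WT tumor 3, lay below the lowest lymphoid library, spleen 4, and the 2 tumor groups overlapped. Means were 45.9 ± 6.07 FPKM in LN, 32.2 ± 11.3 in spleen, 3.23 ± 3.66 in WT tumor and 0.901 ± 1.09 in KO tumor. The gene of the folate receptor family member Izumo1r, a Treg surface protein, lies 15024 bp from Gpr83 on the opposite strand. Izumo1r stood at 323 to 399 FPKM in spleen, 220 to 321 in LN, 83.5 to 269 in WT tumor and 67.3 to 143 in KO tumor.

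Gfer (chromosome 17, 24693187 to 24696156, minus strand) was the least uniform. It stood at 9.52, 13.6, 49.6 and 33.8 FPKM in spleen 1 to 4 and at 26.7, 49.5, 38.6 and 19.99 FPKM in LN 1 to 4. WT tumor 2 to 4 had 0.945, 0.126 and 2.70 FPKM, below all lymphoid libraries. KO tumor 1 and 3, at 11.9 and 15.1 FPKM, lay within the spleen range, while KO tumor 2 had 0.208 FPKM. Means were 33.7 ± 13.1 FPKM in LN, 26.7 ± 18.6 in spleen, 9.06 ± 7.83 in KO tumor and 1.26 ± 1.31 in WT tumor, and only WT tumor was apart from both lymphoid groups. Gfer values are uncertain in one respect. A stretch of 573 bases of its 1776-base transcript (positions 787 to 1359, 32.3%) matched transcripts of the cytoskeletal linker gene Dst in opposite orientation at 99.8% identity, and the counting of such reads is not given in the sources used here. Dst itself ran from 1.08 to 5.75 FPKM over the 14 libraries.

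The start regions of 3 of the 5 genes are shown because the genes were chosen for a shared pattern and these stretches lie where their transcription begins. They are RefSeq promoter sequences on GRCm38.p6, printed 5′ to 3′ on the gene's strand up to the base before the annotated start. Capitals mark matches to the TATA box (TATAAA), the GC box (GGGCGG) or the Kruppel-like factor core (CACCC) on either strand. Treml2 and Gm4956 are named only.
Igfbp4, chr11:99040994-99041243, plus strand: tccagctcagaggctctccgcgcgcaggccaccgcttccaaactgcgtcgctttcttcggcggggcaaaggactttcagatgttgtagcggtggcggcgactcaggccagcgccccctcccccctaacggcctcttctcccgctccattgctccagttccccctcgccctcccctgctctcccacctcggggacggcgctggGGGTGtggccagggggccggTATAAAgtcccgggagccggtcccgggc
Gpr83, chr9:14859960-14860209, plus strand: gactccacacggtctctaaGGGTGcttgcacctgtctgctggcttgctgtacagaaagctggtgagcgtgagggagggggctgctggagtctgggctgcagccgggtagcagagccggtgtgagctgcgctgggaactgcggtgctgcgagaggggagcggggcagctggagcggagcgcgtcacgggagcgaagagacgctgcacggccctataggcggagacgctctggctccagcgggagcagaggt
Gfer, chr17:24696157-24696233, minus strand: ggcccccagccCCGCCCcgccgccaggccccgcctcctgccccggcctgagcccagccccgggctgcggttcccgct

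The Gfer stretch ends after 77 bases because the divergent gene Noxo1 begins there. GC content was 69.2, 66.8 and 85.7%, against a median of 52.4% over the 32851 promoters of 250 bases and 55.8% over their last 77 bases. Of 9 motifs searched on both strands (TATAAA, the CCAAT box, GGGCGG, then CACCC, the ETS core GGAAG, the E box CANNTG, the forkhead site GTAAACA, the TCF and LEF site CTTTGAA and the AP-1 site TGANTCA), Igfbp4 held TATAAA 28 bases before its start, a match that 12.4% of promoters have. CACCC was found in Igfbp4 and Gpr83 on the minus strand, and 52.0% of promoters hold it. CANNTG was found in both as well, once in Igfbp4 and at 2 positions in Gpr83, and 66.2% of promoters hold it. GGAAG was found in Igfbp4 on the minus strand, as in 64.1% of promoters. The Gfer stretch held GGGCGG on the minus strand, which 21.7% of stretches of that length hold. None of the 9 motifs was found in all 3 stretches. These matches describe letters and show no binding.

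The low tumor values rested on few reads. The smallest whole numbers of reads that the steps between low values allow were 1, 2 and 1 for Treml2 in WT tumor 2 to 4, against 415 to 2504 in the lymphoid libraries. Read numbers also follow depth, estimated at 18.4 to 21.4 M reads in LN and 10.7 to 14.4 M in WT tumor. In KO tumor 1 to 3 Treml2 had 193, 7 and 17 reads. For Igfbp4 they were 1, 2 and 220 in WT tumor 2 to 4 and 1, 1 and 690 in KO tumor 1 to 3. For Gm4956 they were 1, 42 and 26, and 1, 34 and 365. Values of 1 to 3 reads say only that some reads were assigned to the gene, and differences between such values were not detectable at this depth.

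**Figure D2:**
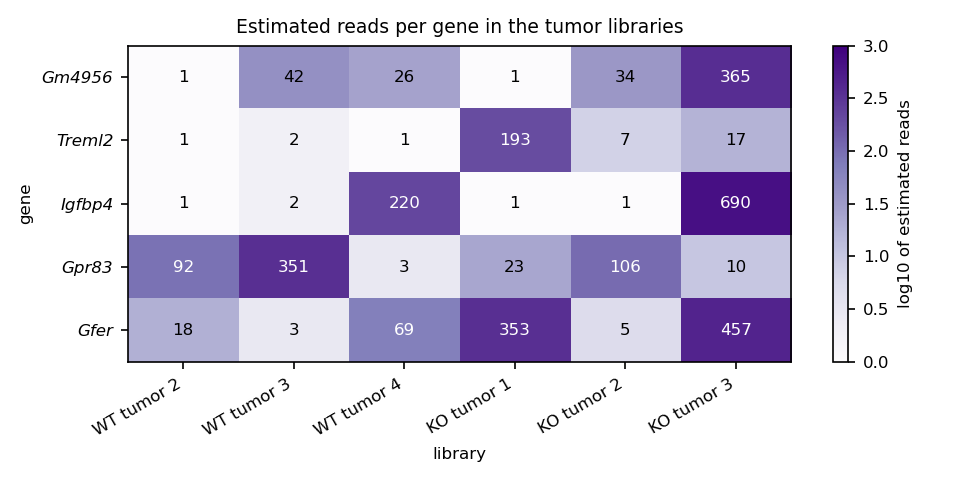
Estimated whole reads of each gene in the 6 tumor libraries, with the number printed and its log10 as shade. No tumor library is low or high for all 5 genes: WT tumor 3 has 351 Gpr83 reads and 2 Igfbp4 reads, and KO tumor 3 has 690 Igfbp4 reads and 10 Gpr83 reads.

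Read by library, the remaining signal sat in different genes. WT tumor 2 held 1 of the 5 genes at 1 FPKM or more (Gpr83), WT tumor 3 held 2 (Gm4956 and Gpr83) and WT tumor 4 held 3 (Gm4956, Igfbp4 and Gfer). KO tumor 1 held Treml2 and Gfer, KO tumor 2 held Gm4956 and Gpr83, and KO tumor 3 held Gm4956, Igfbp4 and Gfer. Within each tumor group, Gpr83 had its lowest value in WT tumor 4 and KO tumor 3, the libraries with the highest values of Igfbp4 and Gfer. Treml2 also had its lowest WT tumor value in WT tumor 4, at 0.0154 FPKM.

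In WT tumor against LN, the contrast by which the genes were picked, their log2(FPKM + 1) differences were -6.37 ± 0.81 (SE) for Gm4956, -4.69 ± 0.79 for Igfbp4, -4.42 ± 0.57 for Treml2, -4.03 ± 0.83 for Gfer and -3.91 ± 0.63 for Gpr83. This scale understates differences of genes with low levels. The 5 held ranks 2, 9, 13, 17 and 22 from the lowest of 10147 tested genes, those with at least 1 FPKM in at least 3 libraries. The rule states no cutoff; the tested gene ranked just above Gpr83 was Gsta4 (-3.95) and the one just below was Mrps10 (-3.91). In all 5 genes every WT tumor value lay below every LN value, as in 8.74% of tested genes, which follows from the choice of the genes. For reference, 3.44% of all tested genes passed an adjusted p of 0.05 in this contrast, 1.26% lower and 2.18% higher in WT tumor.

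KO tumor against spleen is the contrast in which neither group was used to pick the genes, and 3 of the 5 genes passed it. Its groups differ in both tissue and strain, which cannot be told apart in it. Gm4956, Gpr83 and Treml2 fell, and Igfbp4 and Gfer did not pass. Over all tested genes 2.80% passed, 1.16% lower and 1.64% higher in KO tumor. Gm4956 fell by 5.39 ± 0.81 on the log2(FPKM + 1) scale (limma adjusted p = 0.00127), the lowest difference of the 10147 tested genes. Gpr83 fell by 4.21 ± 0.63 (limma adjusted p = 0.00127), the 5th lowest. Treml2 fell by 3.31 ± 0.57 (limma adjusted p = 0.00337), the 17th lowest. In these 3 genes every KO tumor library lay below every spleen library, as in 6.40% of tested genes, and the exact permutation p over the 7 libraries was 0.0286 (two-sided), the smallest that 3 and 4 libraries allow.

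The other 2 genes were lower on average, but not in every KO tumor library. Igfbp4 differed by -2.54 ± 0.79 (95% interval -4.22 to -0.86, limma adjusted p = 0.115; exact permutation p = 0.0571). Without KO tumor 3 it was -3.71 ± 0.67, limma adjusted p = 0.00985, so that 1 library decided the call. Gfer differed by -1.86 ± 0.83 (95% interval -3.62 to -0.09, limma adjusted p = 0.327; exact permutation p = 0.229), and leaving out 1 library at a time moved its estimate from -2.53 (without KO tumor 3) to -0.67 (without KO tumor 2) with limma adjusted p of at least 0.232. All 14 libraries share 1 estimate of the spread in this fit, including those that picked the genes. With only KO tumor and spleen in the fit, the adjusted limma p-values of Gm4956, Gpr83 and Treml2 did not exceed 0.0368.

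The summed B cell markers were lower in KO tumor (19.4 to 60.6 FPKM) than in spleen (76.3 to 329 FPKM), with 2 of 8 tested markers lower and 0 higher. Among them H2-DMb2 fell by 3.27 ± 0.72 (limma adjusted p = 0.0202). Their part in the spleen differences was not tested. Of the other marker lists, Itgax fell among 5 tested dendritic cell genes and Ifng rose among 3 of conventional helper T cells. By limma 0 passed among 8 macrophage, 4 CD8 T or NK, 3 erythroid, 1 fibroblast or endothelial and 1 melanoma genes, with 1 CD8 T or NK gene lower and 0 others at an unadjusted p under 0.05, and 0 neutrophil genes reached the filter. KO tumor minus LN was -5.48 ± 0.81 for Gm4956, -3.70 ± 0.57 for Treml2 and -4.76 ± 0.63 for Gpr83. LN libraries were used to pick the genes, so these values carry no test.

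**Figure D3:**
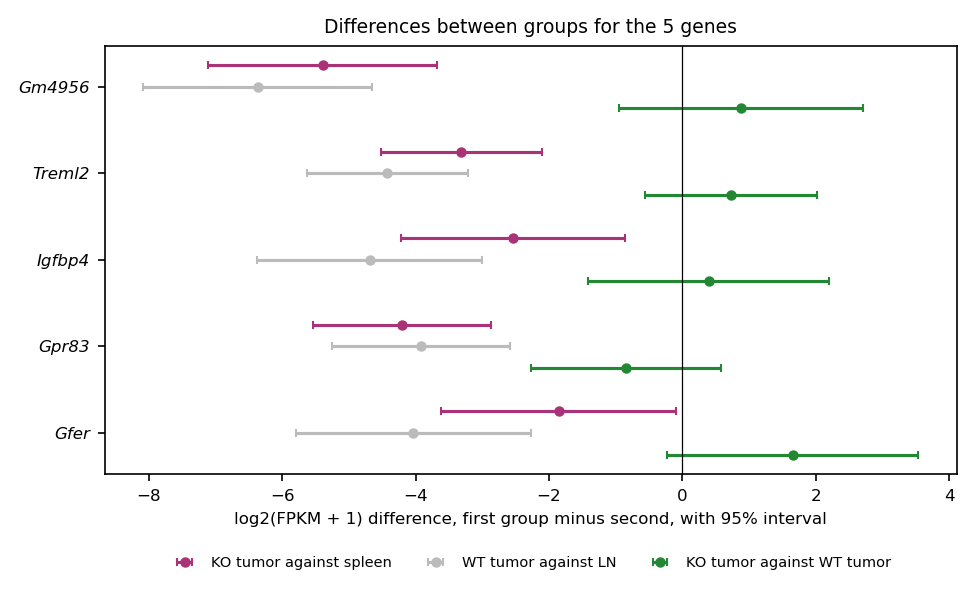
Differences in log2(FPKM + 1) with 95% intervals for the 5 genes in 3 contrasts, as first group minus second. WT tumor against LN, in grey, is the contrast that picked the genes. KO tumor against spleen lies below 0 for all 5, and all 5 intervals of KO tumor against WT tumor include 0.

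Between the 2 tumor groups, KO tumor minus WT tumor gave intervals that all included 0, with Gfer, at the largest estimate, closest to leaving it. The differences were 0.88 ± 0.86 for Gm4956 (95% interval -0.95 to 2.71), 0.73 ± 0.61 for Treml2 (-0.56 to 2.01) and 0.39 ± 0.85 for Igfbp4 (-1.41 to 2.19). For Gpr83 the difference was -0.85 ± 0.67 (-2.27 to 0.58) and for Gfer 1.65 ± 0.89 (-0.23 to 3.53). Every interval included 0, yet each also included a difference of more than 2 on the log2 scale, so these libraries do not show that the genotypes were alike. Since WT tumor libraries picked the genes for low values there, no test is given, and values in KO tumor were free to lie higher. KO tumor stood above WT tumor on average in 4 of the 5 genes. Only for Treml2 did the groups not overlap, as in 7.50% of tested genes with all KO tumor libraries higher. Over all tested genes 0.591% passed in KO against WT tumor, 0.315% lower and 0.276% higher in KO tumor.

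The remaining contrasts share libraries with the choice and are given as values. WT tumor minus spleen was -6.27 for Gm4956, -4.04 for Treml2, -3.51 for Gfer, -3.36 for Gpr83 and -2.93 for Igfbp4, and in all 5 every WT tumor library lay below every spleen library, as in 5.66% of tested genes. LN minus spleen was 1.75 ± 0.73 for Igfbp4 (means of 44.6 and 12.5 FPKM) and between 0.09 and 0.55 for the other 4. All LN libraries lay above all spleen libraries for Igfbp4 alone among the 5, as in 3.76% of tested genes. KO tumor minus LN was -4.29 ± 0.79 for Igfbp4 and -2.38 ± 0.83 for Gfer. Every KO tumor library lay below every LN library in all 5 genes, as in 8.06% of tested genes.

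Genes of the same settings were read from 6 lists of 89 genes, chosen with earlier results of these data known. Over all tested genes 1.16% fell and 1.64% rose in KO tumor against spleen. Resting T cell genes, the factors and homing receptors of unstimulated T cells, had 15 tested members. Of these, 3 fell and 0 rose in KO tumor against spleen. Their median difference was -0.9998, against 0.02 for all tested genes. Id3, whose product blocks E proteins, fell by 3.39 ± 0.75 (limma adjusted p = 0.0202), at 13.8, 3.12 and 3.78 FPKM in KO tumor 1 to 3 and 49.2 to 96.9 FPKM in spleen. The survival gene Bcl2 fell by 2.096 ± 0.43 (limma adjusted p = 0.0132), and the third was Tcf7, a factor of stem-like and resting T cells. In WT tumor against LN 3 resting genes fell (Id3, Bcl2 and Dapl1) and 1 rose, the recirculation factor gene Klf2, with a median of -1.22 against -0.11. Klf2 fell in KO against WT tumor by 1.31 ± 0.27 (limma adjusted p = 0.0331), the 1 resting gene to pass there.

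Treg core genes, to which Gpr83 is often added, moved in both directions. Of 17 tested, 3 rose and 1 fell in KO tumor against spleen, with a median of 0.59. Ctla4, the inhibitory receptor of Tregs, rose by 3.61 ± 0.56 (limma adjusted p = 0.00185), and Tnfrsf18 and Capg rose as well. The member that fell was Izumo1r, the neighbour of Gpr83 on chromosome 9, by 1.87 ± 0.33 (limma adjusted p = 0.00422). Foxp3 differed by 1.01 ± 0.51 (limma adjusted p = 0.397). In WT tumor against LN 2 core genes rose, Entpd1 and Tnfrsf4, and 0 fell.

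The partners of the other genes gave few calls. In the TREM list, 2 of 9 genes were tested, the adaptor genes Hcst (0.36 ± 0.32) and Tyrobp (-0.46 ± 0.65), and neither passed in KO tumor against spleen or had an unadjusted limma p under 0.05. Tyrobp, also a myeloid gene, rose in KO against WT tumor by 5.08 ± 0.70 (limma adjusted p = 0.00262), together with the macrophage gene C1qb. In the list of the insulin-like growth factor axis, 6 of 18 genes were tested and 0 passed in KO tumor against spleen (limma; 2 higher and 0 lower at an unadjusted p under 0.05), with a median of 0.35. Of the other binding protein genes, Igfbp1, Igfbp2 and Igfbp3 were listed at 0 in all 14 libraries, and Igfbp5 did not exceed 0.556 FPKM. Igfbp6 reached 6.11 FPKM in spleen 4 and no more than 0.0422 elsewhere. Igfbp7, the 1 tested, varied between libraries of a group, with 14.4 FPKM in LN 2, 5.35 in WT tumor 3 and 2.62 in KO tumor 2. The receptor gene Igf1r stood at 1.45 to 9.32 FPKM. Its signalling adaptor Irs2 differed by 2.25 ± 0.59 (limma adjusted p = 0.0549).

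For Gfer, the list of the intermembrane space import relay and its client proteins had 23 tested genes, of which 0 passed in KO tumor against spleen (limma; 3 higher and 0 lower at an unadjusted p under 0.05; median 0.12). In WT tumor against LN 1 of them rose, the cytochrome oxidase assembly gene Coa4, and 0 fell. Chchd4, whose product Gfer reoxidizes, stood at 0.201 to 4.24 FPKM in spleen and 0.0858 to 0.738 in KO tumor. The clients Cycs (1.34 ± 0.48) and Chchd3 (1.51 ± 0.57) had the smallest p-values, with limma adjusted p of 0.187 and 0.217. For Gpr83, the proposed ligand precursor gene Pcsk1n was listed at 0 in every library, and the receptor-sorting gene Gprasp1 differed by -1.21 ± 0.79 (limma adjusted p = 0.548).

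**Figure D4:**
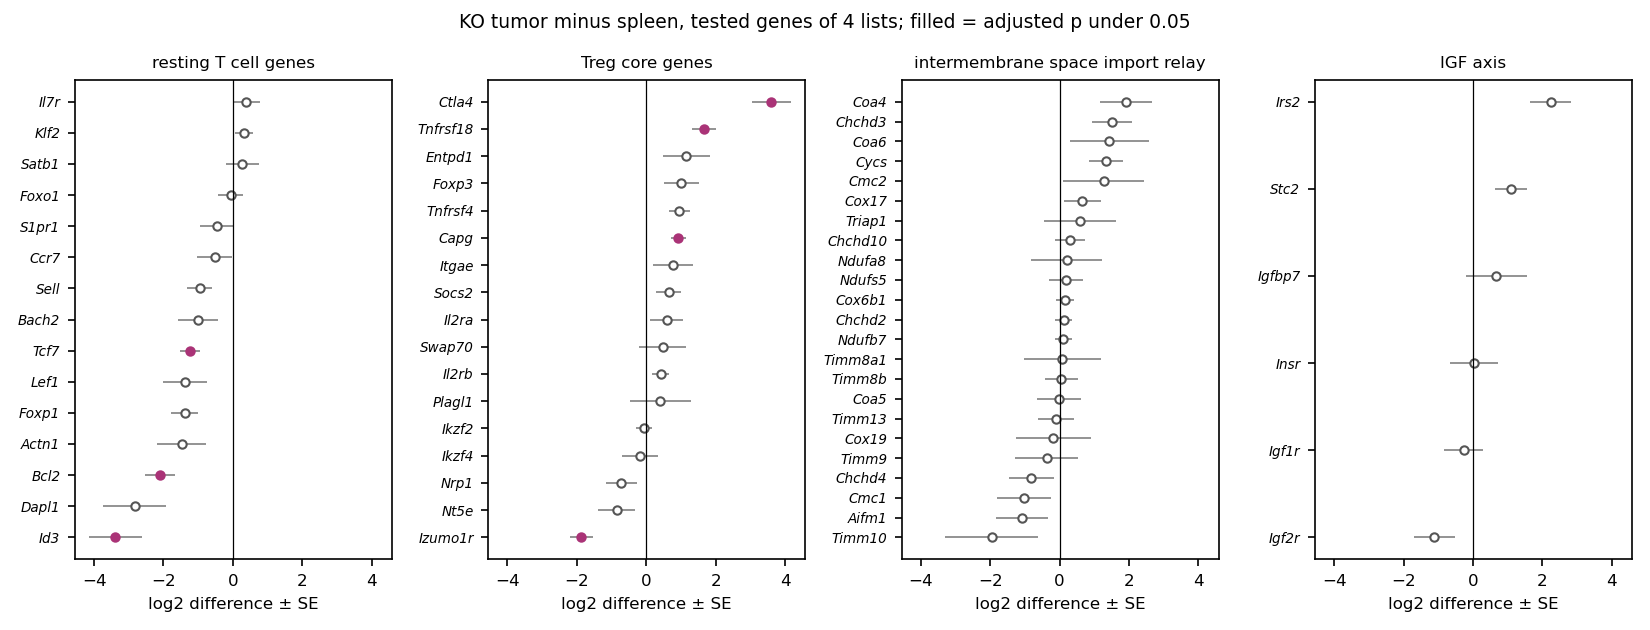
Log2(FPKM + 1) differences of KO tumor minus spleen with standard errors for the tested genes of 4 lists, each axis in log2 units, filled where the adjusted limma p is under 0.05. Id3, Bcl2 and Tcf7 are the filled resting T cell genes, and no gene of the import relay or insulin-like growth factor lists is filled.

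Genes were ranked by likeness of pattern, leaving out predicted genes (Gm and Rik names) and T cell receptor or immunoglobulin segments. The most alike, by Pearson correlation of log2(FPKM + 1) over the 14 libraries, are given as a description, since the libraries share their groups. For Gpr83 they were Rps19 (r = 0.95), Il16 (0.94) and Bcl2 (0.93). For Treml2 they were Rpl10 (0.93), Nsg2 (0.92) and Id3 (0.92). Gm4956 was nearest to Fibp (0.91), Rpl21-ps13 (0.90) and Trim28 (0.90), Igfbp4 to Rpl18-ps2 (0.94) and Rpl18 (0.88), and Gfer to Limd2 (0.88), Il6st (0.85) and Zfp740 (0.85). Levels of Rps19, the nearest to Gpr83, ran from 787 to 1525 FPKM, a narrow range beside that of Gpr83.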

How the data were processed

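The deposited files hold FPKM values, which the authors computed per gene for 14 Smart-Seq2 libraries made from low amounts of total RNA. Per the submitters' processing notes, the build was mm10 (GRCm38) and the tools were Cufflinks 2.2.1 with Cuffdiff, TopHat2 2.1.1 with Bowtie2 2.2.9, as well as DESeq2 and Trimmomatic, with no settings given. No read was reprocessed.

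Genes with at least 1 FPKM in at least 3 libraries (10147) were fitted as log2(FPKM + 1) by limma-trend with robust empirical Bayes over all 14 libraries and 4 groups (limma 3.58.1, R 4.3.3), with Benjamini-Hochberg adjustment over all of them and a threshold of 0.05. The function was tested on simulated data. FPKM are shares of a library, so some genes can fall because others rise. Reads were estimated from the steps between low FPKM multiplied by transcript length in genes with 1 transcript, as the largest step for which at least 90% of values up to 20 reads were whole within 0.1 (93.0 to 96.0% were). For each of the 5 genes the length was instead the one, near the longest annotated transcript, that made the most low values whole. It was 4504 bases for Treml2 (3983 annotated), 1218 for Gm4956 (1148) and 3607 for Gpr83 (4258). That their low read numbers are whole thus follows from this choice. Read numbers are estimates and the smallest the steps allow. Gene positions came from GENCODE M21, which held 22196 of the 22255 identifiers. Shared sequence was searched with blastn 2.17.0.

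The genes, the 6 lists around them and the 10 marker lists were chosen with earlier results of these data known. Named besides the 5 genes are up to 2 genes per list with the smallest p for KO tumor against spleen, all tested genes of small families, the 3 genes most alike in pattern to each, Foxp3 and Cd36. Other genes were named after their values were seen: neighbours, genes that passed, Dst, Gsta4, Mrps10, Igf1r, Chchd4, C1qb and binding protein genes. Alternatives were the pseudocount, the filter, the libraries in the fit, array weights, scaling, the replicate number as a block and leaving out each library. Besides those named, the marker lists were dendritic cell, neutrophil, CD8 T or NK, conventional helper T, fibroblast or endothelial and melanoma. Some genes that these rules name are not reported here.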

Additional observations from a re-analysis of the deposited data

Results flagged for a closer look

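Treml2 in spleen had 1 library far from the others: spleen 4 stood at 8.07 FPKM, while spleen 1, 2 and 3 lay between 19.6 and 19.7 FPKM. The gap was large for the range of 4 libraries by Dixon's criterion. Of 10 groups of 4 libraries examined in the 5 genes this was the 1 that met it, and chance meets it in about 1 of 20 groups. Spleen 4 also had the lowest B cell sum of the spleen libraries, 76.3 FPKM against 202 to 329, and the lowest macrophage sum, 140.4 FPKM. Their part in the value was not tested.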

How the results depend on the processing

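Under each alternative run, Gm4956, Treml2 and Gpr83 stayed past the threshold in KO tumor against spleen (adjusted limma p up to 0.0151, 0.0368 and 0.00985), and no estimate of the 5 genes changed sign. Igfbp4 passed only without KO tumor 3 (-3.71, adjusted p = 0.00985), and over its alternatives its adjusted p ran from 0.00985 to 0.393. Gfer passed under none (0.232 to 0.782). Of genes past the threshold in KO tumor against spleen there were 284, 185 with only these 2 groups in the fit, and 158 to 269 without 1 library (158 without KO tumor 3, 171 and 173 without KO tumor 1 and 2). In WT tumor against LN there were 349, and 246 to 343 without 1 library. With FPKM scaled to the protein-coding total there were 350, of which 177 were higher and 173 lower, against 221 and 128 as deposited. In KO against WT tumor there were 60, 23 with only these 2 groups, and 27 to 62 without 1 library (27 without KO tumor 2, 31 without KO tumor 3, 37 without KO tumor 1, 38 without WT tumor 3). Fewer libraries entered those fits.

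With the replicate number as a block the counts were 230, 274 and 23 in the same order, and no call of the 5 genes changed. Same-numbered libraries did not deviate together (correlations of -0.03 to 0.03 over 18 pairs). This does not settle whether the numbers mark a shared animal or batch, which the labels do not say. Depth limits the lowest values. In the lymphoid libraries 3 reads of Treml2 would give 0.0311 to 0.0583 FPKM, and in WT tumor 0.0462 to 0.0624 FPKM. The Treml2 values of WT tumor, 0.0154 to 0.0330 FPKM, lay below that level.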
